A study of Mus musculus with 13 samples.

Results

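Oxidative phosphorylation subunits are the nuclear-encoded proteins that build the respiratory chain and the ATP synthase of mitochondria. Members were taken by symbol, as genes named Nduf followed by a letter (a, b, c, s or v) and a number, Sdha to Sdhd, Uqcr, Cox4 to Cox8 and Atp5. The rule found 81 of the 18193 genes with a probe set of their own, and each was read at its brightest probe set. By respiratory complex they are 35 genes of complex I, 4 of complex II, 8 of complex III, 17 of complex IV and 17 of complex V. Ndufa4l2, a paralog of Ndufa4, and Cox7a2l, a factor of respiratory supercomplexes, match the rule by name and were kept. Ndufa4 stands under complex I by its symbol, although its protein is now placed in complex IV. Cox7b was not analysed here, and neither were the subunits encoded in mitochondrial DNA.

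The study compared mouse neuroblastomas, tumours of the sympathetic nervous lineage, with normal adrenal gland on 13 Affymetrix arrays. There were 3 tumours with both transgenes (labelled MYCN AND mutated ALK, written MYCN + mutALK here), 3 with mutated ALK alone (mutALK), 4 with MYCN alone (MYCN) and 3 adrenal glands labelled normal. All groups share the C57BL/6 background, and none was treated. The transgenes are expressed only in the neural crest lineage, the animals were killed once a tumour could be felt, and ages are not given in the sources used here. Whole adrenal gland is mostly steroid-making cortex around a small medulla, so the adrenal is a mixed tissue and not a purified cell of origin. Nothing in the labels says that arrays of a group come from separate animals, and some titles share a number, so p-values measure the spread between these arrays, which may be partly technical.

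In the respiratory chain, complex I oxidises NADH and complex II oxidises succinate, both pass electrons through ubiquinone to complex III, and cytochrome c carries them on to complex IV, which reduces oxygen. Complexes I, III and IV pump protons, and complex V, the ATP synthase, uses the gradient to make ATP. Steroid-making cells hold many mitochondria, whose inner membrane carries the starting enzyme of steroid synthesis. Several complex IV subunits exist as isoforms, with Cox6a2, Cox7a1 and Cox8b known as the forms of heart, skeletal muscle and, for Cox7a1 and Cox8b, brown fat.

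The promoters of these isoforms are shown because Cox8b and Cox7a1 moved far more than any other member, while their widely expressed counterparts Cox8a and Cox7a2 did not. Each line gives the 250 bases before the RefSeq start in GRCm38.p6, 5′ to 3′ on the gene's strand, with CG dinucleotides in capitals. They lie at chr7:140900447-140900696 on the minus strand for Cox8b, chr19:7217617-7217866 on the minus strand for Cox8a, chr7:30183921-30184170 on the plus strand for Cox7a1 and chr9:79759854-79760103 on the minus strand for Cox7a2.
Cox8b: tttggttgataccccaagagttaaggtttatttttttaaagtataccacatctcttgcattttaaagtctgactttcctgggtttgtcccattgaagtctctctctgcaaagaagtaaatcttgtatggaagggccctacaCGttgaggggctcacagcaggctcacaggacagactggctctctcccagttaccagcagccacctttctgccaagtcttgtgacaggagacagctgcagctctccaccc
Cox8a: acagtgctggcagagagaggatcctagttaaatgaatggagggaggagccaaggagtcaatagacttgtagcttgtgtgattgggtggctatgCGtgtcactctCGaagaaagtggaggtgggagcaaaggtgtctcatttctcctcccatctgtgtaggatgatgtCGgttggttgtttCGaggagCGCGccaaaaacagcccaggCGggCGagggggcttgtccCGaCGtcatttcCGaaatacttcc
Cox7a1: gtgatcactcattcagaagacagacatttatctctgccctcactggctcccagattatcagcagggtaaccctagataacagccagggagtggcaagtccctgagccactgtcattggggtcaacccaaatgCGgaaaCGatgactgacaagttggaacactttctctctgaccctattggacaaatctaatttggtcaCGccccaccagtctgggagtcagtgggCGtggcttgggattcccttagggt
Cox7a2: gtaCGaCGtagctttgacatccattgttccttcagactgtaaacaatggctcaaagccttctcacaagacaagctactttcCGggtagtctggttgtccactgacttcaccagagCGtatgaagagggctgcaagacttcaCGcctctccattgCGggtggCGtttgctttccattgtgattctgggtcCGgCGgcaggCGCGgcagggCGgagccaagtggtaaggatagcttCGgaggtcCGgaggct
The Cox8b stretch holds 1 CG dinucleotide and that of Cox8a 11. The Cox7a1 stretch holds 4 and that of Cox7a2 holds 14. Over the 71 RefSeq promoters of the 66 members that matched (300 bases each), the median number of CG dinucleotides was 19, against 7 over all 32851 promoters of the table.

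The median over the 81 members was similar in every tumour and higher in every adrenal. On the log2 scale it was 11.67, 11.60 and 11.61 in the MYCN + mutALK tumours, 11.48, 11.57 and 11.64 in the mutALK tumours, 11.57, 11.65, 11.72 and 11.70 in the MYCN tumours, and 12.02, 12.81 and 12.07 in the adrenals. The tumours and the adrenals did not overlap, and adrenal 2 stood well above the other adrenals. Differences below are log2 differences, tumour minus adrenal unless said otherwise, so -1 is a 2-fold lower level. A member counts as lower or higher where limma's adjusted p over all genes was under 0.05.

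Subunit transcripts were lower in all 3 kinds of tumour, by a median of 1.41-fold in MYCN + mutALK, 1.46-fold in mutALK and 1.44-fold in MYCN tumours. In MYCN + mutALK tumours 46 of 81 members were lower and 1 was higher, while over all genes 24.2% were lower and 24.3% higher. In mutALK tumours 46 were lower and 0 higher, against 21% and 21.3% of all genes. At an unadjusted p under 0.05 limma counted 55 members there in all, beside 8805 of all 18193 genes. In MYCN tumours 45 were lower and 2 higher, against 24.8% and 25.4% of all genes. The median difference of the members was -0.50, -0.55 and -0.53 in the 3 comparisons, beside -0.03, 0 and -0.02 over all genes. The 3 comparisons share the same 3 adrenals, so they are not independent of each other.

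**Figure D1:**
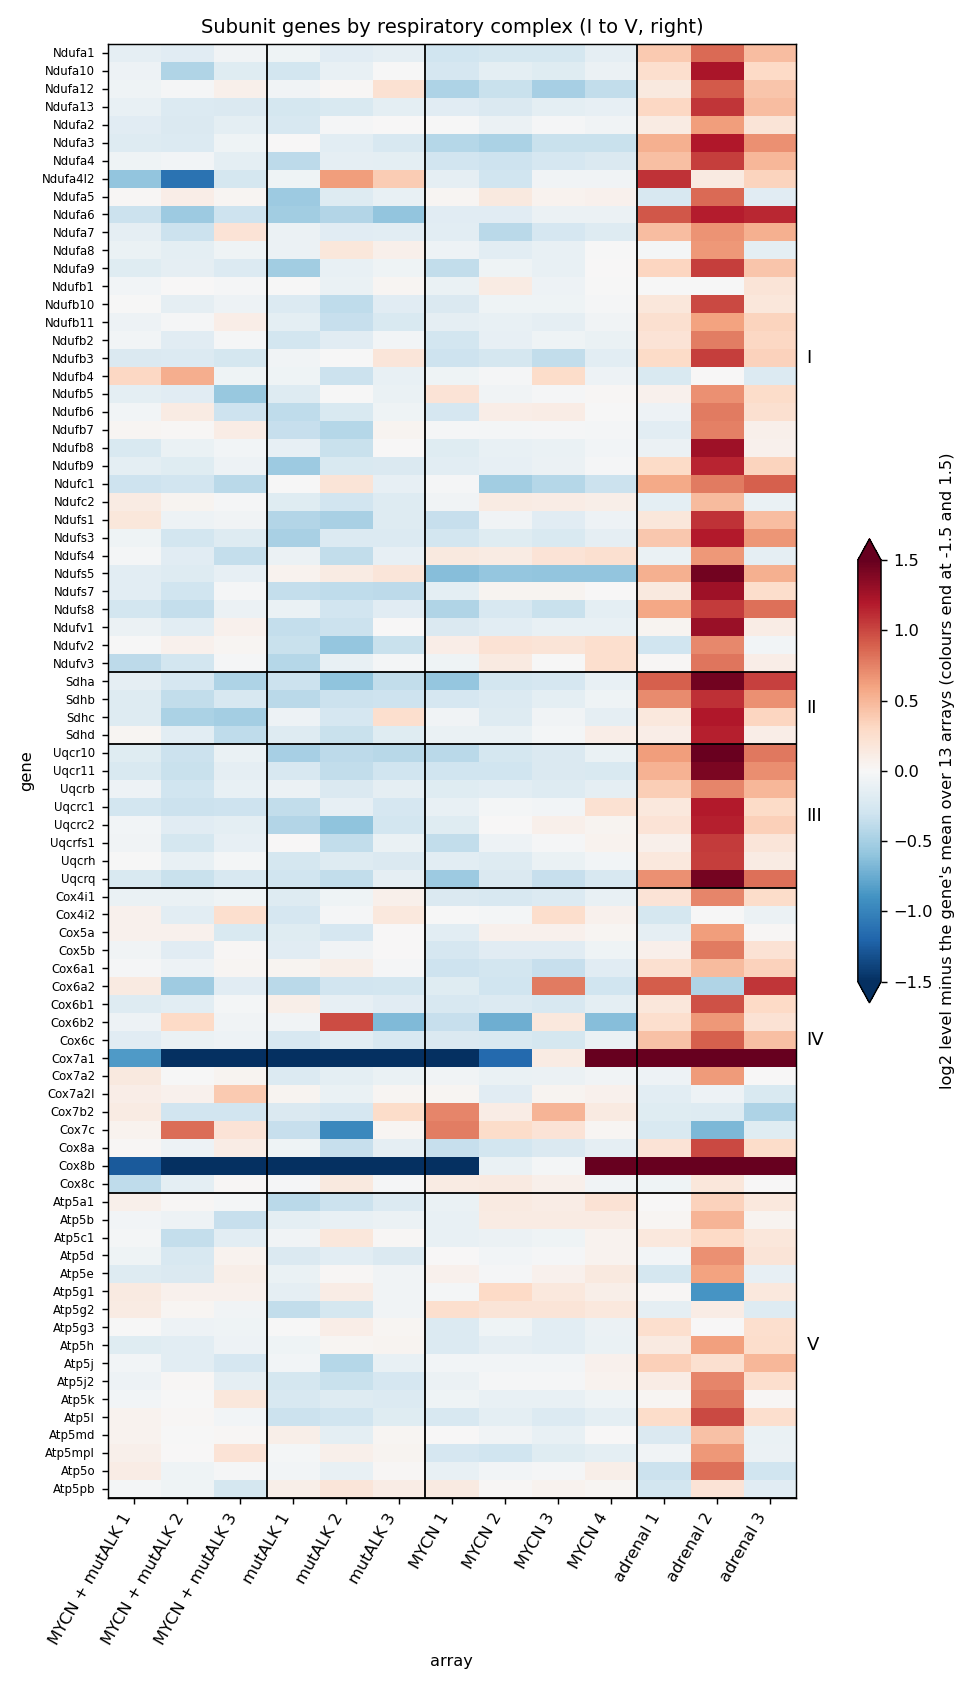
Level of each of the 81 members (rows, by complex) on each of the 13 arrays (columns), as log2 level minus the gene's own mean over the arrays. Blue is below and red above that mean, with colours ending at -1.5 and 1.5. The adrenal columns are red for most rows, adrenal 2 most of all, and Cox7a1 and Cox8b span the whole scale.

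Adrenal 2 stands apart, so the counts and the leading members are also given without it. It was the highest of the 13 arrays for 67 of 81 members (82.7%), while it was highest for 15.6% of all genes. Its members lay a median of 0.63 above the mean of the other adrenals, and all genes lay 0.01 above it. It also differed in its marker genes. Its mean over 6 fat genes was 12.37, against 10.76 and 10.37 in adrenals 1 and 3, and over 6 neuron genes it was 9.92, against 5.42 and 4.57. Its mean over 6 liver genes was 11.44, against 5.42 and 5.39. Liver genes also exceeded a mean of 8 in MYCN + mutALK tumour 1, mutALK tumours 1 and 3 and MYCN tumour 2. The part of these cells in the results was not tested.

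Without adrenal 2, the tumours were still lower for 41 members in MYCN + mutALK, 39 in mutALK and 40 in MYCN. Those higher then numbered 3, 1 and 5. Over all 18193 genes 4388, 3931 and 4421 were then lower, and 4418, 3860 and 4606 higher. The median differences of the members shrank to -0.29, -0.30 and -0.29. Without all 5 arrays rich in liver transcripts, the median differences were -0.32, -0.38 and -0.30 in MYCN + mutALK, mutALK and MYCN tumours. That fit leaves mutALK tumour 2 alone in its group, so no counts are given for it. In bulk tissue, fewer cells rich in mitochondria and less of each transcript per cell cannot be told apart.

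Cortex genes were far lower in the tumours, with list means of 5.41 to 7.11 over 10 genes in the 10 tumours, against 12.50, 11.53 and 12.92 in the adrenals. All 10 cortex genes, among them Star and Cyp11a1 of steroid synthesis, were lower in each tumour kind. The part of this loss of cortex in the subunit levels was not tested.

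**Figure D2:**
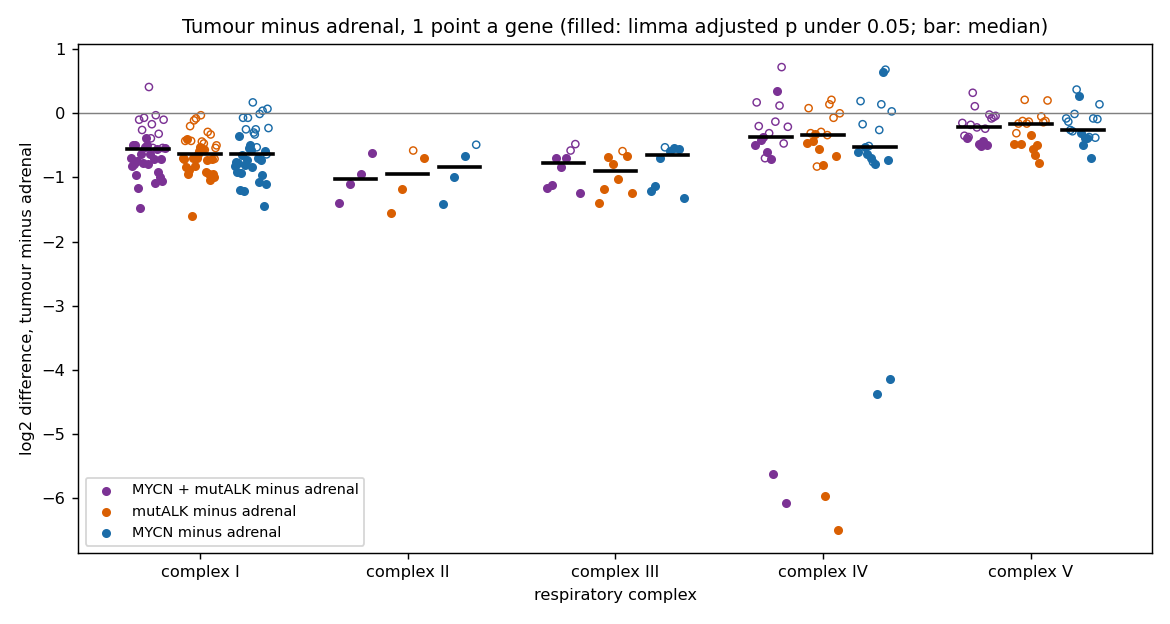
Log2 difference from adrenal of every member (points) by respiratory complex, for MYCN + mutALK, mutALK and MYCN tumours. Filled points had a limma adjusted p under 0.05, and bars are medians. The medians of complex II lie lowest, between -1.03 and -0.83, and those of complex V nearest to 0, between -0.26 and -0.16.

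The 4 subunits of complex II (succinate dehydrogenase) were lower in most tests. This complex belongs to both the respiratory chain and the citric acid cycle, and inherited loss of its genes in humans causes tumours of the adrenal medulla and of paraganglia. All 4 were lower in MYCN + mutALK tumours and 3 in each of the others. Their median difference was -1.03 in MYCN + mutALK, -0.94 in mutALK and -0.83 in MYCN tumours.

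Sdha, the flavoprotein that binds succinate, measured 11.14, 11.03 and 10.81 in MYCN + mutALK tumours, 10.95, 10.68 and 10.91 in mutALK tumours, 10.70, 11, 11.03 and 11.17 in MYCN tumours and 12.17, 12.72 and 12.30 in adrenals. Every tumour lay below every adrenal by about 1 log2 unit or more. The differences were -1.40 ± 0.17, -1.55 ± 0.17 and -1.42 ± 0.16 (SE), with limma adjusted p of 3.22e-05, 2.69e-05 and 1.46e-05, or falls of 2.64-fold, 2.93-fold and 2.68-fold. Sdhb, the iron-sulfur subunit, was 11.52, 11.34 and 11.47 in MYCN + mutALK tumours, 11.31, 11.39 and 11.40 in mutALK tumours, 11.46, 11.50, 11.56 and 11.65 in MYCN tumours and 12.42, 12.81 and 12.40 in adrenals. Its groups did not overlap either, and its differences were -1.10, -1.18 and -1.0 (limma adjusted p 1.54e-05, 1.7e-05 and 1.49e-05). Without adrenal 2 both genes remained lower, Sdha by -1.24, -1.39 and -1.26 and Sdhb by -0.97, -1.04 and -0.87.

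The membrane anchors that hold ubiquinone behaved less evenly. Sdhc was 10.18, 9.89 and 9.86 in MYCN + mutALK tumours, 10.29, 10.12 and 10.62 in mutALK tumours, 10.32, 10.18, 10.32 and 10.23 in MYCN tumours and 10.53, 11.57 and 10.69 in adrenals. Its difference was -0.95 in MYCN + mutALK and -0.67 in MYCN tumours (limma adjusted p 0.00534 and 0.0243), while -0.58 in mutALK tumours did not pass (limma adjusted p 0.0662). Sdhd differed by -0.62, -0.70 and -0.49 (limma adjusted p 0.0496, 0.0353 and 0.0939). Without adrenal 2, Sdhd passed in no comparison and Sdhc passed in MYCN + mutALK tumours alone, at -0.63.

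Complex III (the cytochrome bc1 complex) was lower for 6 of 8 subunits in MYCN + mutALK, 7 in mutALK and 7 in MYCN tumours, with medians of -0.77, -0.90 and -0.64. Without adrenal 2 the counts were 6, 7 and 5 and the medians -0.56, -0.65 and -0.45. Its small supernumerary subunits Uqcrq, Uqcr10 and Uqcr11 led. Uqcrq was 11.16, 11.05 and 11.14 in MYCN + mutALK tumours, 11.08, 11.02 and 11.25 in mutALK tumours, 10.84, 11.17, 11.04 and 11.14 in MYCN tumours and 12.07, 12.82 and 12.21 in adrenals. The groups did not overlap, and it fell by 2.38-fold, 2.38-fold and 2.5-fold (limma adjusted p 0.000101, 0.000153 and 3.5e-05). Uqcr10 differed by -1.17, -1.40 and -1.21, and Uqcr11 by -1.11, -1.18 and -1.14, all with limma adjusted p of 0.000343 or lower. These 3 genes fell by between -0.85 and -1.14 without adrenal 2.

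Of the core subunits of complex III, Uqcrc2 was lower in all 3 tumour kinds, by -0.70, -1.02 and -0.59 (limma adjusted p 0.0158, 0.00211 and 0.0251). Uqcrc1 was lower in MYCN + mutALK tumours at -0.84 and in mutALK tumours at -0.79, and its -0.53 in MYCN tumours did not pass (limma adjusted p 0.0515). The Rieske iron-sulfur protein Uqcrfs1 lay at -0.58, -0.59 and -0.54, near the threshold throughout (limma adjusted p 0.0502, 0.052 and 0.0485). Without adrenal 2, Uqcrfs1 passed in no comparison, and neither Uqcrc1 nor Uqcrc2 passed in MYCN tumours.

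**Figure D3:**
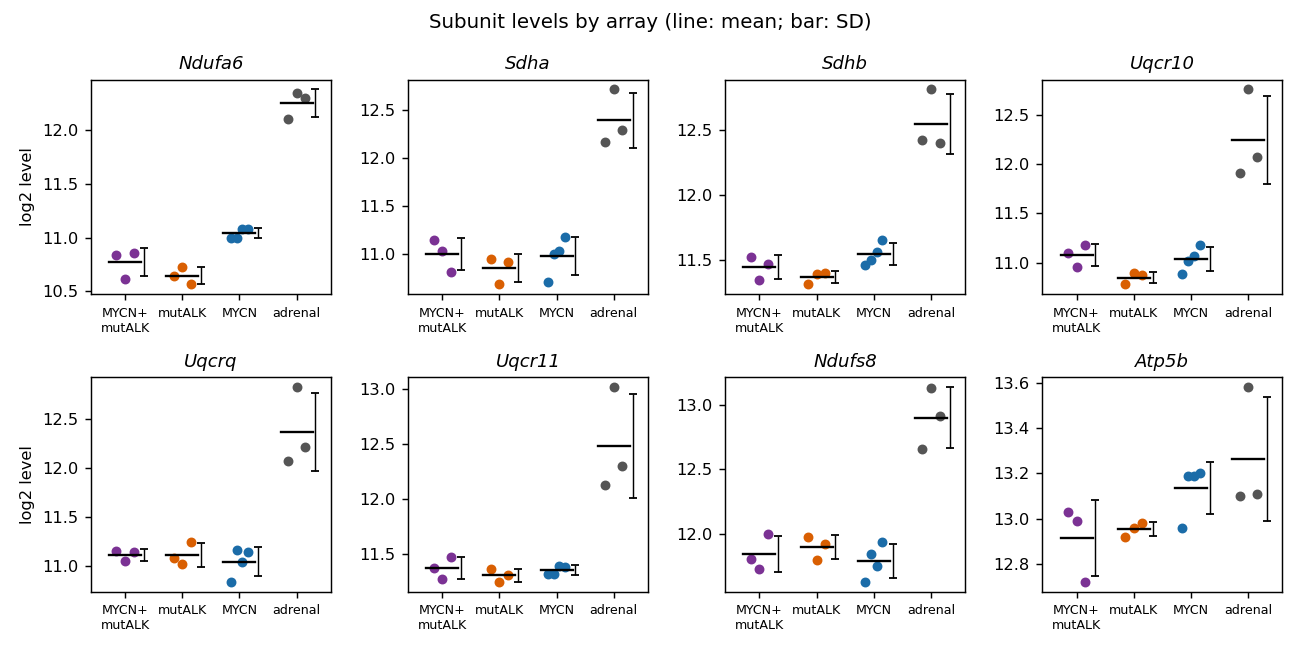
Log2 level of 8 subunits on each array (points), with the group mean (line) and SD (bar), for MYCN + mutALK, mutALK, MYCN and adrenal. For Ndufa6, Sdha, Sdhb, Uqcr10, Uqcrq, Uqcr11 and Ndufs8 every tumour lies below every adrenal, while Atp5b of the ATP synthase overlaps between MYCN tumours and adrenals.

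Complex I (NADH dehydrogenase) was lower for 24 of 35 subunits in MYCN + mutALK tumours, 21 in mutALK and 22 in MYCN tumours. The medians were -0.55, -0.63 and -0.64, and without adrenal 2 they were -0.35, -0.40 and -0.40 with 20, 18 and 20 subunits lower. The accessory subunit Ndufa6 led. It measured 10.84, 10.62 and 10.86 in MYCN + mutALK tumours, 10.64, 10.73 and 10.57 in mutALK tumours, 11, 11, 11.08 and 11.08 in MYCN tumours and 12.10, 12.34 and 12.30 in adrenals. Adrenal 2 did not stand out for this gene, and every tumour lay more than 1 log2 unit below every adrenal. The differences were -1.47 ± 0.10, -1.60 ± 0.10 and -1.21 ± 0.10 (SE), with limma adjusted p of 8.34e-07, 9.92e-07 and 1.21e-06, or 2.77-fold, 3.03-fold and 2.31-fold. Without adrenal 2 they were -1.43, -1.56 and -1.16.

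The electron-carrying core of complex I was uneven. Ndufs8, a core subunit with iron-sulfur clusters, was 11.81, 11.73 and 12.00 in MYCN + mutALK tumours, 11.98, 11.80 and 11.92 in mutALK tumours, 11.63, 11.85, 11.75 and 11.94 in MYCN tumours and 12.66, 13.13 and 12.91 in adrenals. Its groups did not overlap, and its differences were -1.05, -1.0 and -1.10 (limma adjusted p 5.39e-05, 0.000121 and 1.86e-05). Ndufs3 differed by -0.92, -1.04 and -0.96, Ndufs1 by -0.55, -0.94 and -0.73 and Ndufs7 by -0.72, -0.94 and -0.58, all passing the test. Ndufv1, which binds NADH, passed in no comparison (limma adjusted p 0.118, 0.0521 and 0.0529), and it read 12.82 in adrenal 2 against 11.56 and 11.64 in the other adrenals. Ndufv2, its partner in the NADH-binding arm, differed by -0.10, -0.54 and 0.07 (limma adjusted p 0.736, 0.0517 and 0.814). Without adrenal 2, Ndufs8 was still lower, by -0.94, -0.88 and -0.99, and so was Ndufs3, by -0.70, -0.82 and -0.74. Ndufs1 no longer passed in MYCN + mutALK tumours (-0.30) and Ndufs7 no longer in MYCN tumours (-0.22). Ndufv2 gained a call there, being higher by 0.37 in MYCN tumours (limma adjusted p 0.0142), beside 0.20 in MYCN + mutALK and -0.24 in mutALK tumours, which did not pass.

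Among accessory subunits, Ndufc1 differed by -1.08, -0.73 and -1.07 and Ndufa3 by -0.96, -0.94 and -1.20. Ndufa4 differed by -0.75, -0.88 and -0.93, and its paralog Ndufa4l2 by -1.17 in MYCN + mutALK tumours, -0.20 in mutALK and -0.65 in MYCN tumours (limma adjusted p 0.00341, 0.605 and 0.0499). Without adrenal 2, Ndufc1 differed by -1.06, -0.71 and -1.05, Ndufa3 by -0.77, -0.74 and -1.01 and Ndufa4 by -0.56, -0.69 and -0.74, all passing the test. Ndufa4l2 then differed by -1.37, -0.40 and -0.84, and again mutALK tumours did not pass. In other tissues Ndufa4l2 is known as a target of hypoxia-inducible factor.

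Complex IV (cytochrome c oxidase) was lower for 7 of 17 members in MYCN + mutALK, 8 in mutALK and 8 in MYCN tumours, and higher for 1 in MYCN + mutALK and 1 in MYCN tumours. Without adrenal 2 the lower counts were 7, 8 and 9 and the higher ones 1, 0 and 1. The median differences were -0.37, -0.34 and -0.52, and -0.21, -0.23 and -0.43 without adrenal 2. The median level of the complex falls in a gap between bright and dim members, and the gene at the middle differs between arrays. It was 12.90 in adrenal 2 (Cox8a), 11.14 in adrenal 1 (Cox7a2l) and 11.16 in adrenal 3 (Cox8b). In the tumours, where the middle gene was Cox7a2l, it ran from 11.13 to 11.69. These medians therefore compare different genes. Gene by gene, adrenal 2 lay a median of 0.46 above the mean of the other adrenals. The isoforms Cox8b and Cox7a1 held the extremes of all 81 members. Cox8b was 6.33, 5.11 and 5.65 in MYCN + mutALK tumours, 6.08, 4.55 and 5.19 in mutALK tumours, 5.82, 7.49, 7.57 and 9.65 in MYCN tumours and 10.56, 13.58 and 11.16 in adrenals. It was lower by -6.07 ± 0.93, -6.49 ± 0.93 and -4.14 ± 0.87 (SE), with limma adjusted p of 0.000199, 0.000182 and 0.00172. Cox7a1 was 5.58, 4.39 and 4.49 in MYCN + mutALK tumours, 4.72, 4.33 and 4.39 in mutALK tumours, 4.31, 5.26, 6.55 and 8.17 in MYCN tumours and 8.66, 12.54 and 10.13 in adrenals. It was lower by -5.63 ± 1.01, -5.97 ± 1.01 and -4.37 ± 0.94 (SE), with limma adjusted p of 0.000631, 0.000574 and 0.00207. Both remained lower without adrenal 2, Cox8b by -5.17, -5.59 and -3.23 and Cox7a1 by -4.58, -4.92 and -3.32.

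Markers of fat were also lower in tumours, and some but not all followed both isoforms from array to array. Cidea was 9.06, 10.96, 10.86 and 11.26 in MYCN tumours, overlapping the adrenals at 9.79, 13.50 and 11.04. Adipoq was 9.33 in mutALK tumour 1, where Cox7a1 was 4.72, and 6.34 in MYCN tumour 3, where Cox7a1 was 6.55. Ucp1, the uncoupling protein of brown fat, was 5.0, 4.63 and 5.17 in MYCN + mutALK tumours, 4.77, 5.11 and 5.13 in mutALK tumours, 6.61, 8.36, 8.94 and 10.60 in MYCN tumours and 9.37, 13.55 and 12.00 in adrenals. From MYCN tumour 1 to tumour 4, Ucp1, Cox8b and Cox7a1 each rose in the order of the arrays. MYCN tumour 4 was the highest tumour for Ucp1, Cidea, Adipoq, Cox8b and Cox7a1, and adrenal 2 the highest adrenal. The mean over the 6 fat genes ran from 4.70 to 5.37 in MYCN + mutALK tumours, 5.64 to 6.85 in mutALK tumours, 6.22 to 9.41 in MYCN tumours and 10.37 to 12.37 in adrenals. All 6 fat genes were lower in MYCN + mutALK and mutALK tumours and 5 in MYCN tumours. Their part in the Cox8b and Cox7a1 values was not tested.

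**Figure D4:**
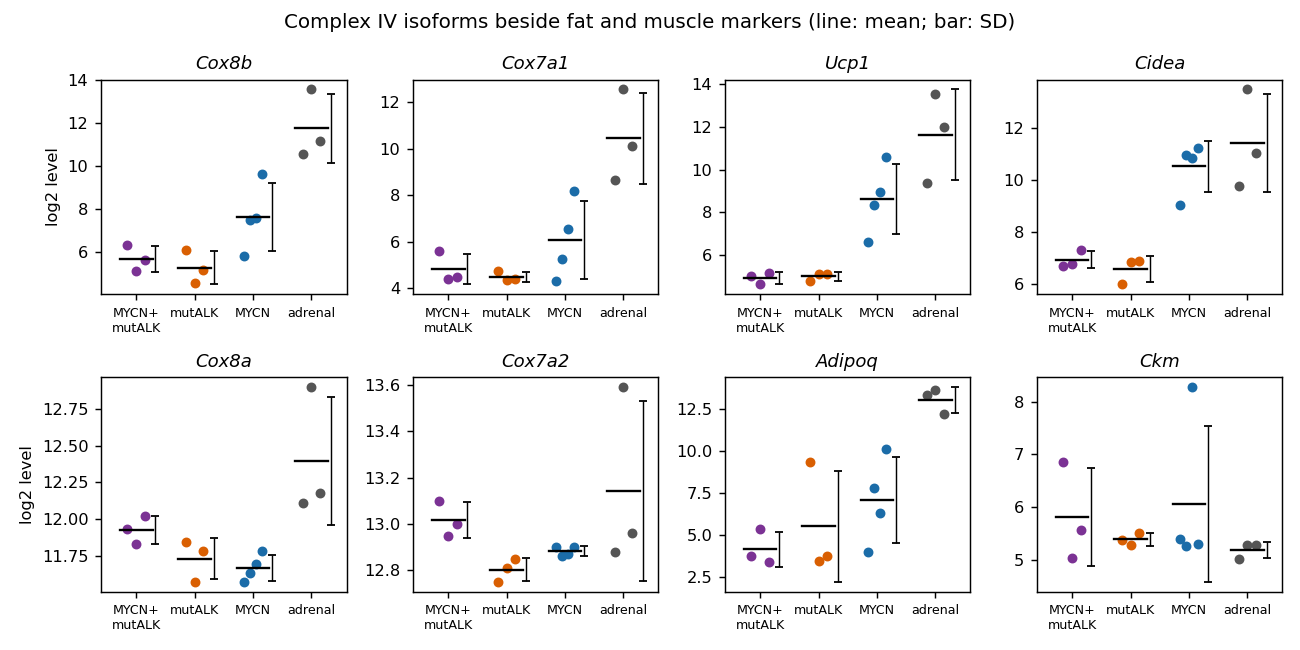
Log2 level on each array (points) of the complex IV isoforms Cox8b, Cox7a1, Cox8a and Cox7a2, the fat genes Ucp1, Cidea and Adipoq and the muscle gene Ckm, with group mean (line) and SD (bar); each panel has its own axis, which does not start at 0. Cox8b, Cox7a1 and Ucp1 are highest in adrenal 2, and among tumours in MYCN tumour 4.

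The common counterparts differed by less than 1 log2 unit. Cox8a was 11.93, 11.83 and 12.02 in MYCN + mutALK tumours, 11.84, 11.57 and 11.78 in mutALK tumours, 11.57, 11.63, 11.69 and 11.78 in MYCN tumours and 12.11, 12.90 and 12.18 in adrenals. It was lower in mutALK tumours at -0.66 and in MYCN tumours at -0.73 (limma adjusted p 0.011 and 0.00343), and its -0.47 in MYCN + mutALK tumours did not pass (limma adjusted p 0.051). Cox7a2 passed in no comparison, at -0.13, -0.34 and -0.26, and its adrenal 2 value of 13.59 stood above 12.88 and 12.96 in the other adrenals. Without adrenal 2, Cox8a differed by -0.22, -0.41 and -0.48, again passing in mutALK and MYCN tumours alone, and Cox7a2 by 0.10, -0.12 and -0.04, with no call.

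Cox6a2, the heart and muscle form, was 6.53, 5.86 and 6.23 in MYCN + mutALK tumours, 5.99, 6.11 and 6.12 in mutALK tumours, 6.21, 6.10, 7.17 and 6.10 in MYCN tumours and 7.30, 5.94 and 7.47 in adrenals. Here adrenal 2 was the lowest adrenal. No comparison passed (limma adjusted p 0.166, 0.111 and 0.282), and without adrenal 2 all 3 did, at -1.18, -1.31 and -0.99. The high MYCN tumour was number 3, in which the muscle gene Ckm read 8.28, against 5.26 to 5.39 in the other MYCN tumours. Its common form Cox6a1 was lower in all 3, by -0.37, -0.32 and -0.63 (limma adjusted p 0.00556, 0.0154 and 8.24e-05), and without adrenal 2 by -0.31, -0.26 and -0.57.

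Of the other complex IV subunits, Cox4i1, Cox5b and Cox6b1 were lower in every tumour kind, Cox4i1 by -0.49, -0.47 and -0.60, Cox5b by -0.42, -0.43 and -0.52, and Cox6b1 by -0.60, -0.55 and -0.69. Cox5b depends on the probe set, 1 of its 6 being higher by 0.55 in MYCN + mutALK tumours, and without adrenal 2 it passed in MYCN tumours alone. Cox4i1 was then still lower, by -0.32, -0.30 and -0.43, and Cox6b1 by -0.36, -0.31 and -0.45. Cox5a, Cox4i2 (a form of lung), Cox6b2 and Cox8c (forms of testis) passed in no comparison with adrenal. Rises were few and small. Cox7a2l was higher by 0.34 in MYCN + mutALK tumours (limma adjusted p 0.0255), where it read 11.40, 11.37 and 11.69, against 11.14, 11.23 and 11.07 in adrenals. Cox7b2, another testis form, was higher by 0.64 in MYCN tumours (limma adjusted p 0.0144), where it read 4.13, 3.51, 3.91 and 3.53, against 3.22, 3.21 and 2.94 in adrenals. These Cox7b2 values lie near the low end of the table, whose lowest value is 2.04.

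Complex V (ATP synthase) had the medians nearest to 0. It was lower for 5 of 17 members in MYCN + mutALK tumours, 7 in mutALK and 5 in MYCN tumours, or 5, 4 and 4 without adrenal 2. Over all genes 24.2%, 21% and 24.8% were lower, so the complex V shares lie near those of all genes in MYCN + mutALK and MYCN tumours. In MYCN tumours 1 member was higher and in the others 0, while without adrenal 2 there were 1, 1 and 3 higher. The medians were -0.22, -0.16 and -0.26, and -0.06, -0.15 and -0.08 without adrenal 2. Atp5b, the catalytic beta subunit, was 13.03, 12.99 and 12.72 in MYCN + mutALK tumours, 12.92, 12.96 and 12.98 in mutALK tumours, 12.96, 13.19, 13.19 and 13.20 in MYCN tumours and 13.10, 13.58 and 13.11 in adrenals. MYCN tumours overlapped the adrenals, and no comparison passed (limma adjusted p 0.0629, 0.109 and 0.473). The alpha subunit Atp5a1 was lower in mutALK tumours at -0.48 (limma adjusted p 0.00538), beside -0.15 in MYCN + mutALK and -0.08 in MYCN tumours, which did not pass. The gamma subunit Atp5c1 was lower in MYCN + mutALK tumours at -0.39 (limma adjusted p 0.0104), and at -0.16 and -0.26 did not pass in the others. This rests on the brightest probe set, since in MYCN + mutALK tumours the other, dimmer set gave 0.42 and the mean of the sets 0.02.

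The genes Atp5g1, Atp5g2 and Atp5g3 encode the same mature ring subunit c. Atp5g3 was lower in MYCN tumours at -0.30 (limma adjusted p 0.0134), Atp5g2 was higher there at 0.27 (limma adjusted p 0.0487), and Atp5g1 passed in no comparison. The Atp5g2 call was kept in 10 of 23 alternatives. It was lost with the mean of all probe sets (the 2 dimmer sets gave 0.45 and -0.06) and with the number in the array titles as a block. Atp5g1 read 10.38 in adrenal 2, against 11.29 and 11.43 in the other adrenals, the opposite of most members.

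Motifs of transcription factors known to act on respiratory genes were counted in the 300-base RefSeq promoters of the 66 matched members, on both strands. GCGCATGCG, the core of the site of NRF1, was found in 7 (10.6%), against 1.95% of 27025 genes. CCGGAAG, the ETS motif read by GABPA, was found in 17 (25.8%), against 9.93%. CACGTG, the E-box of MYC with MAX, was found in 6 (9.09%), against 8.09%. The E-box is its own reverse complement and the NRF1 core nearly so, and a promoter was counted once however often it matched. Each motif contains CG, and the member promoters hold more CG dinucleotides than all promoters (median 19 against 7). The shares were not matched for this. These are descriptions of letters and not of binding.

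Atp5l, subunit g of the ATP synthase, is shown because its promoter alone among the 66 held all 3 motifs. Cox6a1 is shown because it differed between tumour kinds. Motifs are in capitals, in the 250 bases before the start in GRCm38.p6, at chr9:44920743-44920992 for Atp5l and chr5:115348959-115349208 for Cox6a1, both on the minus strand.
Atp5l: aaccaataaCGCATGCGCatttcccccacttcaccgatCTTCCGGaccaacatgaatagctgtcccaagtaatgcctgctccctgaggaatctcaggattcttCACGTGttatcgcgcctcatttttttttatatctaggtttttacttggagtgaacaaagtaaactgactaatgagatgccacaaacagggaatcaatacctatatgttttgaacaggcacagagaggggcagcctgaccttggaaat
Cox6a1: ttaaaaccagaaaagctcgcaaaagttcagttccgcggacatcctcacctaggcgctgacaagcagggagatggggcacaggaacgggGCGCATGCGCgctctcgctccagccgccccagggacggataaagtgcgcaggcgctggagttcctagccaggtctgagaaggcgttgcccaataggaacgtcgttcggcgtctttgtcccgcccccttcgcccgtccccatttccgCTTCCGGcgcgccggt
In Atp5l the NRF1 core, the ETS motif and the E-box begin 241, 212 and 147 bases before the start. In Cox6a1 the NRF1 core lies 162 bases and the ETS motif 16 bases before it. Atp5l was 11.99, 11.95 and 11.90 in MYCN + mutALK tumours, 11.61, 11.64 and 11.76 in mutALK tumours, 11.70, 11.79, 11.73 and 11.79 in MYCN tumours and 12.21, 12.93 and 12.19 in adrenals. It was lower in all 3 kinds, by -0.49, -0.77 and -0.69 (limma adjusted p 0.0289, 0.00287 and 0.00286). Without adrenal 2 it was lower by -0.25, -0.53 and -0.45 (limma adjusted p 0.0402, 0.000665 and 0.0011). The call in MYCN + mutALK tumours was kept in 17 of 23 alternatives.

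Among the tumours the members varied little. Over the 10 tumours 74 of 81 members (91.4%) had a range under 1 log2 unit, while 58.4% of all genes did, and the median range was 0.45 for members and 0.85 for all genes. Ndufa13 had the narrowest range, 11.78 to 11.93. The 7 members with wider ranges were Cox8b, Cox7a1, Cox7c, Ndufa4l2, Cox6b2, Cox6a2 and Cox7b2. These have means over all arrays of 3.4 to 7.6, while most members are bright genes. The comparison with all genes was not matched for level. Cox7c was read here by a probe set with levels of 6.33 to 8.14 in tumours.

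The tumours with both transgenes were set against those with 1. Between MYCN + mutALK and MYCN tumours limma called 0 members lower and 0 higher, while over all genes 6.66% were lower and 6.16% higher. At an unadjusted p under 0.05 limma counted 6 members, beside 4887 of all 18193 genes. The median difference of the members was -0.01. Between MYCN + mutALK and mutALK tumours 1 member was lower and 0 higher, against 6.04% and 8.39% of all genes, with a member median of 0.06. At an unadjusted p under 0.05 limma counted 7 members, beside 5273 of all genes. Without adrenal 2, which narrows the shared spread, the counts were 1 lower and 4 higher against MYCN (1681 and 1688 of all 18193 genes), and 2 lower and 3 higher against mutALK (1590 and 2069).

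Between mutALK and MYCN tumours 4 members were lower and 3 higher, against 17.2% and 13.6% of all genes, with a median of -0.08. With each array centred on its median, a step that moves the median of all genes to -0.12, 9 were lower and 1 higher. Counts over all genes are not given for that step. Without adrenal 2 there were 12 lower and 6 higher, while over all genes 3502 of 18193 were lower and 3038 higher.

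Ndufs5, an accessory subunit of complex I, separated all groups. It was 10.76, 10.72 and 10.79 in MYCN + mutALK tumours, 10.97, 11.04 and 11.10 in mutALK tumours, 10.28, 10.34, 10.33 and 10.32 in MYCN tumours and 11.45, 12.37 and 11.45 in adrenals. Replicates of each tumour kind lay close together, and no groups overlapped. It was 0.72 ± 0.19 (SE) higher in mutALK than in MYCN tumours (limma adjusted p 0.0122), and this call was kept in all 23 alternatives. The 0.44 between MYCN + mutALK and MYCN and the -0.28 between MYCN + mutALK and mutALK did not pass (limma adjusted p 0.156 and 0.407), and both passed without adrenal 2. A probe set shared by Ndufs5 and a pseudogene was left out.

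Ndufv2 was 11.48, 11.24 and 11.48 in mutALK tumours, against 11.92, 12.03, 12.01 and 12.07 in MYCN tumours, a difference of -0.61 (limma adjusted p 0.031). The call was lost with the title number as a block and kept in 15 of 23 alternatives. The MYCN + mutALK tumours, at 11.81, 11.88 and 11.84, lay between them. Atp5a1 was 12.30, 12.39 and 12.50 in mutALK tumours, against 12.61, 12.84, 12.82 and 12.92 in MYCN tumours, a difference of -0.40 (limma adjusted p 0.0147). Atp5g2 was 11.01, 11.12 and 11.33 in mutALK tumours, against 11.64, 11.57, 11.58 and 11.54 in MYCN tumours, a difference of -0.43 (limma adjusted p 0.00878). Groups did not overlap for these 3 genes, and neither did those of Ndufa6, at -0.40 (limma adjusted p 0.00809). Of all 81 members 27 did not overlap between mutALK and MYCN tumours, and the share over all genes was not counted. With the mean of all probe sets the calls of Ndufv2, Atp5a1 and Atp5g2 were lost. That of Atp5a1 was also lost without mutALK tumour 1. The fit without the arrays with liver transcripts leaves mutALK tumour 2 alone in its group, so calls lost in it are not listed.

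Cox6a1 was 13.84, 13.89 and 13.78 in mutALK tumours, against 13.49, 13.53, 13.45 and 13.63 in MYCN tumours, a difference of 0.31 (limma adjusted p 0.0182). The Cox6a1 call was kept in 18 of 23 alternatives. It was lost with arrays centred on their median and without mutALK tumour 1, mutALK tumour 2 or MYCN tumour 3. Ndufa12 was 12.18, 12.25 and 12.46 in mutALK tumours, against 11.77, 11.89, 11.73 and 11.86 in MYCN tumours, a difference of 0.48 (limma adjusted p 0.0353). For Ndufa12 this rests on 1 of 4 probe sets, and the mean of all 4 gives -0.10. With the title number as a block this call was lost too. Ndufa4l2 was 6.11, 5.60 and 6.44 in MYCN + mutALK tumours, against 6.64, 7.33 and 7.08 in mutALK tumours, a difference of -0.97 (limma adjusted p 0.0359). That call was also lost with this block and was kept in 12 of 23 alternatives.

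**Figure D5:**
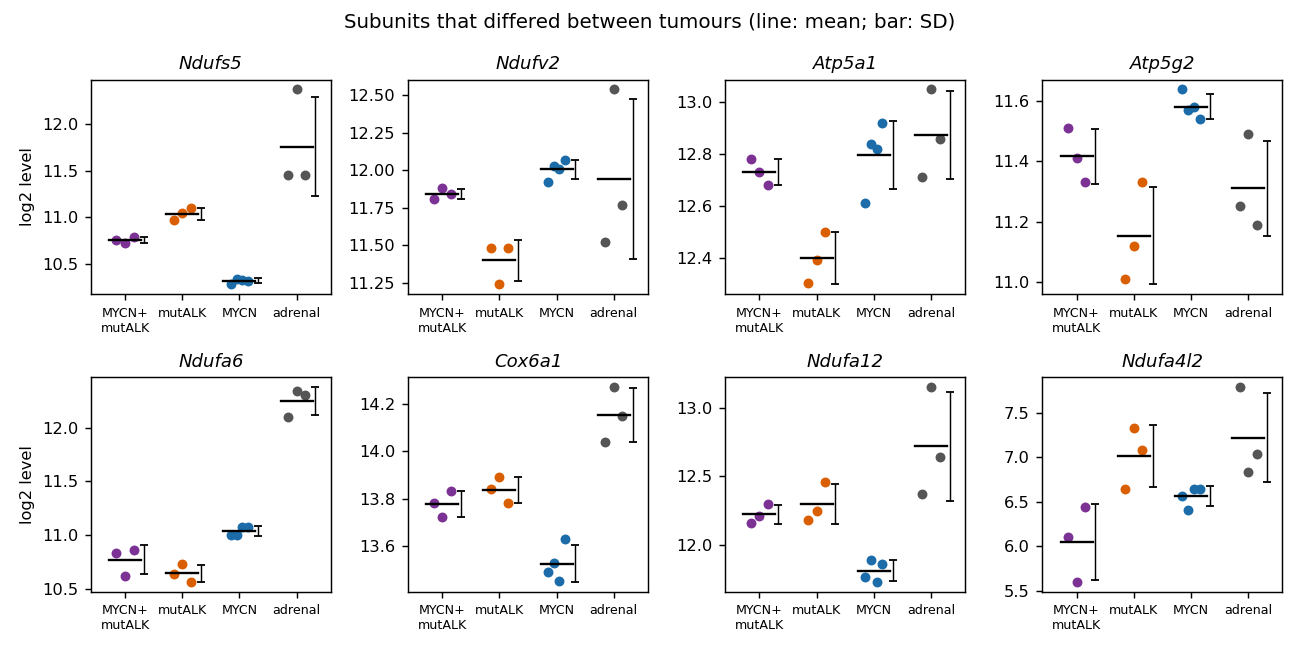
Log2 level on each array (points) of the 8 subunits that passed between tumour kinds, with group mean (line) and SD (bar), for MYCN + mutALK, mutALK, MYCN and adrenal; each panel has its own axis, which does not start at 0. Ndufs5 separates the 3 tumour kinds with narrow spreads, and every MYCN + mutALK array lies between mutALK and MYCN for Ndufs5 and Ndufv2.

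Genes of the steps that feed the chain were mostly lower as well, counted together with pyruvate carboxylase and kinases that inhibit pyruvate dehydrogenase. Of 22 measured genes of the citric acid cycle and pyruvate dehydrogenase, 16 were lower in MYCN + mutALK, 16 in mutALK and 14 in MYCN tumours. The shares of all genes that were lower are 24.2%, 21% and 24.8%. The medians of the list were -1.06, -1.20 and -0.97. Without adrenal 2 the lower counts were 15, 16 and 14, the higher ones 1, 0 and 2 and the medians -0.71, -0.74 and -0.74. Pcx, pyruvate carboxylase, was 8.46, 6.62 and 6.82 in MYCN + mutALK tumours, 8.06, 6.76 and 7.40 in mutALK tumours, 7.11, 7.16, 6.89 and 8.31 in MYCN tumours and 12.04, 12.36 and 11.87 in adrenals. It was lower by -4.79, -4.68 and -4.72 (limma adjusted p 1.35e-05, 2.74e-05 and 7.06e-06). Suclg2, a succinyl-CoA ligase subunit, differed by -2.60, -3.31 and -2.64. The kinase Pdk4, which inhibits pyruvate dehydrogenase, differed by -5.26, -4.21 and -3.89, and its relative Pdk2 by -3.15, -3.13 and -3.20.

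Of 15 measured carriers and subunits outside the symbol rule, 6 were lower in MYCN + mutALK, 10 in mutALK and 7 in MYCN tumours. In the same order 2, 1 and 2 were higher. The shares of all genes are 24.2%, 21% and 24.8% lower and 24.3%, 21.3% and 25.4% higher. Without adrenal 2 the lower counts were 6, 10 and 7 and the higher ones 2, 2 and 3. The electron transfer flavoprotein, which brings electrons from fatty acid oxidation, was lower in all its parts. Etfa differed by -2.04, -2.19 and -1.95, Etfb by -1.95, -1.64 and -2.21 and Etfdh by -2.06, -1.44 and -1.96. Coq9 of ubiquinone synthesis differed by -1.92, -2.21 and -1.54. Coq7, of the same pathway, was 10.58, 10.54 and 10.36 in MYCN + mutALK tumours, 9.77, 9.79 and 9.99 in mutALK tumours, 10.21, 10.44, 10.44 and 10.35 in MYCN tumours and 9.28, 10.42 and 9.22 in adrenals. It was higher by 0.85 in MYCN + mutALK and 0.72 in MYCN tumours (limma adjusted p 0.0155 and 0.0246), and its 0.21 in mutALK tumours did not pass. Without adrenal 2, Coq7 was higher in all 3, by 1.24, 0.60 and 1.11, and Coq5, also of ubiquinone synthesis, was higher by 0.52 in MYCN and lower by -0.61 in mutALK tumours. Coq7 and Coq5 were named after their values were seen. Atpif1, the inhibitor of ATP hydrolysis by complex V, was higher in every tumour kind. It was 12.26, 12.26 and 12.20 in MYCN + mutALK tumours, 12.16, 12.17 and 12.23 in mutALK tumours, 11.93, 11.86, 11.96 and 11.76 in MYCN tumours and 11.13, 11.27 and 11.15 in adrenals. It was higher by 1.05, 1.0 and 0.69 (limma adjusted p 2.59e-06, 6.9e-06 and 2.6e-05), with every tumour above every adrenal.

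Of 44 measured assembly factors, 27 were lower in MYCN + mutALK, 29 in mutALK and 25 in MYCN tumours, and 2, 1 and 2 were higher. Among all genes 24.2%, 21% and 24.8% were lower and 24.3%, 21.3% and 25.4% higher. Without adrenal 2, 25, 25 and 21 were lower and 3, 2 and 4 higher. Coa5 and Cox20 of complex IV assembly were lower in all, Coa5 by -1.96, -1.48 and -1.96 and Cox20 by -1.54, -1.38 and -1.86, and adrenal 2 did not exceed the other adrenals for Cox20 (11.14, against 11.23 and 11.30). Foxred1 of complex I assembly differed by -1.14, -1.5 and -1.37. Ndufaf6, also of complex I assembly, was higher in MYCN + mutALK at 0.67 and in MYCN tumours at 1.17 (limma adjusted p 0.0221 and 0.000399). Ttc19 of complex III was higher in MYCN + mutALK at 0.82 and in mutALK tumours at 0.76 (limma adjusted p 0.00138 and 0.00272).

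Regulators of mitochondrial biogenesis were mixed, with 4 of 23 lower and 5 higher in MYCN + mutALK, 9 lower and 4 higher in mutALK, and 7 lower and 7 higher in MYCN tumours. Over all genes 24.2% were lower and 24.3% higher in MYCN + mutALK, 21% and 21.3% in mutALK, and 24.8% and 25.4% in MYCN tumours. Without adrenal 2 the regulators gave 4 lower and 6 higher in MYCN + mutALK, 10 and 2 in mutALK, and 5 and 6 in MYCN tumours. Pprc1, a coactivator of the PGC-1 family, was 8.70, 8.91 and 8.52 in MYCN + mutALK tumours, 8.23, 7.56 and 8.12 in mutALK tumours, 9.34, 9.69, 9.57 and 9.45 in MYCN tumours and 7.18, 7.03 and 7.78 in adrenals. It was higher by 1.38, 0.64 and 2.18 (limma adjusted p 0.00026, 0.0342 and 4.23e-06). Without adrenal 2 it was higher by 1.23 in MYCN + mutALK and 2.03 in MYCN tumours, and its 0.49 in mutALK tumours did not pass (limma adjusted p 0.117). Nrf1 was higher by 1.12, 0.57 and 1.21, with 0.47 in mutALK tumours not passing without adrenal 2 (limma adjusted p 0.0502), and Gabpb1, a partner of GABPA, by 1.01, 1.35 and 1.55. Epas1, a hypoxia-inducible factor subunit, was lower by -2.92, -2.36 and -1.99. Myc was 6.31, 5.81 and 6.28 in MYCN + mutALK tumours and 8.67, 7.83 and 7.16 in mutALK tumours. In MYCN tumours it was 6.44, 6.13, 6.30 and 6.82, and in adrenals 9.86, 8.22 and 9.72. Its differences of -3.13 in MYCN + mutALK and -2.84 in MYCN tumours were the lowest among these regulators. The mouse Mycn probe set differed by 2.5, 4.35 and -1.34, and whether it reads the MYCN transgene was not tested.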

How the data were processed

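RNA of 10 tumours and 3 adrenals was measured on Affymetrix mouse arrays. The deposited values are log2 levels summarised by the authors with RMA in Partek, per the submitters' processing notes (no versions stated). They run from 2.04 to 14.5 with array medians of 5.8 to 5.9. Of 45101 probe sets, 34945 carry 1 symbol in the platform annotation, which RefSeq changed for 0. Those with several symbols (932, of which 9 concern these subunits) and 64 controls were left out. Each gene was read at the probe set with the highest mean over all arrays. 48 members have several.

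All genes and arrays entered a single linear fit by group (lmFit and eBayes, limma 3.58.1, R 4.3.3), whose 6 contrasts were tested two-sided with Benjamini-Hochberg adjustment over 18193 genes. On simulated data with 200 genes changed per contrast, 52.2% to 65.7% of genes changed by 1 log2 unit were recovered over the 6 contrasts. Of those changed by 0.5, 7.5% to 17.9% were recovered. Far more genes passed in the real data, where the adjusted threshold is therefore less strict, so these shares do not give the recovery there. Signal over background was not used here, and the number of arrays limits the precision. Groups come from the labels. The members, lists and tests were chosen with earlier results of these data known. Named with values are, per comparison, up to 4 called members with the largest fall and rise, the isoform families, complex II, the core subunits, and up to 3 called genes each way per further list. Uqcr10, Uqcr11, Uqcrq, Ndufa3, Ndufa13, Ndufc1, Cox7c, Atp5l, Ppargc1a and Tfam were named after their values were seen. Figures used matplotlib 3.10.9. The 23 alternatives cover scaling, probe sets, dim genes, eBayes settings, array weights, title numbers and arrays left out.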

Additional observations from a re-analysis of the deposited data

Results flagged for a closer look

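Within the 4 MYCN tumours, 5 of 45 values tested had an array far from the others by Dixon's criterion (gap over range above the critical value), where chance flags about 1 in 20. MYCN tumour 1 was low for Atp5b (12.96, against 13.19, 13.19 and 13.20), for Cox5a (12.70, against 12.93, 12.93 and 12.89), for Ndufs7 (11.27, against 11.45, 11.45 and 11.42) and for the median of complex I (11.51, against 11.62, 11.64 and 11.64). MYCN tumour 3 was high for Cox6a2 (7.17, against 6.21, 6.10 and 6.10), and it was also the MYCN tumour with the highest mean over 9 muscle genes (6.99, against 4.63 to 4.70 in the others).

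The difference between tumour kinds passed limma's test for 8 members. Between mutALK and MYCN tumours it was 0.72 for Ndufs5, 0.48 for Ndufa12 and 0.31 for Cox6a1, and -0.61 for Ndufv2, -0.43 for Atp5g2, -0.40 for Atp5a1 and -0.40 for Ndufa6. Between MYCN + mutALK and mutALK tumours it was -0.97 for Ndufa4l2. Markers of neutrophils were higher in mutALK tumours (list means 8.88 to 10.71 over 4 genes) than in MYCN tumours (4.58 to 5.28), and those of dividing cells were lower (10.20 to 11.20, against 11.76 to 12.00 over 3 genes). Their part in these differences was not tested.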

How the results depend on the processing

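Of 75 values named as passing, 37 kept call and sign in all 23 alternatives, and 39 of 159 others gained a call in at least 1. The member counts that follow stand without counts over all genes, which are given above for the main fit and without adrenal 2. Where they change, this cannot be told from a change in the calls over all genes. Leaving out 1 array at a time, the members higher ran from 0 to 3 in MYCN + mutALK, 0 to 1 in mutALK and 1 to 5 in MYCN tumours against adrenal, and the medians from -0.70 to -0.30 in mutALK and -0.67 to -0.29 in MYCN tumours, the smallest sizes without adrenal 2. Likewise 2 to 12 were lower and 1 to 6 higher between mutALK and MYCN, 0 to 1 lower and 0 to 4 higher between MYCN + mutALK and MYCN, and 0 to 2 lower and 0 to 3 higher between MYCN + mutALK and mutALK, the highest counts without adrenal 2. With array weights the medians were -0.28, -0.29 and -0.27 and 3, 1 and 12 were higher in MYCN + mutALK, mutALK and MYCN tumours against adrenal, 11 were lower and 5 higher between mutALK and MYCN, and 1 and 3 between MYCN + mutALK and MYCN. With only the arrays compared, 24 in MYCN + mutALK and 28 in mutALK tumours were lower than adrenal and 0 higher in MYCN + mutALK, 9 were lower between mutALK and MYCN, 1 lower and 2 higher between MYCN + mutALK and MYCN, and 0 lower between MYCN + mutALK and mutALK. Without the 5 arrays with liver transcripts 27 were lower in mutALK, the MYCN median was -0.30, and 1 was higher in MYCN + mutALK than in MYCN and 1 higher and 0 lower than in mutALK. Without adrenal 2 and MYCN + mutALK tumour 1, the medians were -0.30 in mutALK and -0.29 in MYCN, 1 and 6 were higher, 12 were lower between mutALK and MYCN, 1 lower and 2 higher between MYCN + mutALK and MYCN and 1 higher between MYCN + mutALK and mutALK. Quantile normalization again and median centring gave 2 higher in MYCN + mutALK and 0 lower between MYCN + mutALK and mutALK, and centring gave 9 lower and 1 higher between mutALK and MYCN. With the mean of all probe sets 1 was higher in mutALK, 2 in MYCN + mutALK, 2 lower between mutALK and MYCN and 1 higher between MYCN + mutALK and MYCN. Trend and robust eBayes gave 2 higher in MYCN + mutALK against adrenal and 1 against MYCN, and leaving out the dimmest 40% of genes gave 2 higher in MYCN + mutALK. The title number as a block (correlation 0.456) gave 1 higher in MYCN and 0 lower between MYCN + mutALK and mutALK.

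Other probe sets turned some signs. Against adrenal these were Sdha (0.05 in MYCN + mutALK, 0.10 in mutALK, 0.20 in MYCN), Cox5b (0.55 and 0.29 in MYCN + mutALK, 0.18 in mutALK, 0.28 and 0.31 in MYCN), Atp5c1 (0.42, and 0.02 as the mean of its sets, in MYCN + mutALK), Cox8a (0.16 in MYCN) and Atp5g2 (-0.06 in MYCN). Ndufa12 between mutALK and MYCN gave -0.06, -0.24 and -0.59, and -0.10 as the mean. Of these only Cox5b at 0.55 in MYCN + mutALK passed limma (adjusted p 0.00367; the lowest and highest of its other probe sets are 0.0309 and 0.0862). The causes were not tested. No paired analysis was possible because the groups share no replicate numbers in the labels.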

Other observations

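Some regulators of mitochondrial biogenesis differed between tumour kinds, named here after their values were seen. Ppargc1a, the coactivator PGC-1 alpha, was 7.98, 7.42 and 6.98 in MYCN + mutALK tumours, 4.94, 5.80 and 5.04 in mutALK tumours, 5.06, 4.69, 5.42 and 4.90 in MYCN tumours and 5.17, 8.05 and 6.10 in adrenals. It was higher in MYCN + mutALK than in mutALK tumours by 2.20 and than in MYCN tumours by 2.44 (limma adjusted p 0.0285 and 0.014). Tfam, which packages and transcribes mitochondrial DNA, was 9.52, 9.47 and 9.26 in MYCN + mutALK tumours, 9.21, 9.03 and 9.32 in mutALK tumours, 10.01, 10.17, 10.29 and 10.28 in MYCN tumours and 9.61, 9.23 and 9.64 in adrenals. It was lower than in MYCN tumours by -0.77 in MYCN + mutALK and by -1.0 in mutALK tumours (limma adjusted p 0.00409 and 0.000213). Pprc1 was lower than in MYCN tumours too, by -0.80 and -1.54 (limma adjusted p 0.0255 and 0.000244).

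Other probe sets of the members that passed had the same sign for 43 of 50 in MYCN + mutALK, 47 of 51 in mutALK and 42 of 50 in MYCN tumours against adrenal.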
